A study of Mus musculus with 24 samples.

Results

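The 8 genes described here belong to the epidermal growth factor (EGF) receptor system and were measured in mouse TM3 cells. They were the genes of 6 ligands (Hbegf, Areg, Ereg, Tgfa, Btc and Epgn), of the receptor itself (Egfr) and of its induced inhibitor (Errfi1). The rule for membership uses gene symbols, reached through the RefSeq transcript given for each array probe, and the set was chosen with earlier results of these data known. They were read by 11 of the 56605 probes on the array, and 7 of the 8 genes (9 probes) passed the detection filter for testing. The whole series held 23787 genes with a symbol, of which 16806 passed.

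TM3 is a mouse testicular line described as Leydig cells, the cells of the testis that make testosterone, and it was grown in medium with 5% horse serum and 2.5% fetal bovine serum. The cells were either exposed in suspension to nanosecond pulsed electric fields (nsPEF, 80 pulses of 60 ns at 14 kV/cm given over 180 s) or sham-treated, so that the sham cells shared the harvest and the suspension step. RNA was taken at 0, 4 and 24 h, with 4 biological replicates of the 1 cell line in each of the 6 groups, and hybridised to 24 one-colour arrays. The groups were sham at 0 h (S0), 4 h (S4) and 24 h (S24) and nsPEF-exposed at 0 h (E0), 4 h (E4) and 24 h (E24).

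The ligands are made as membrane-anchored precursors and are cut from the cell surface by metalloproteases. Once bound, the receptor dimerises, its kinase becomes active, and the signal passes through Ras to the ERK kinases. Transcription of several ligand genes is raised by the same signal, which feeds it forward, while Errfi1 (also called Mig6) is induced by it and blocks the receptor kinase. In the testis, EGF-like factors are known to act on steroid production by Leydig cells.

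The arrays had a 75th percentile of signal intensity between 202 and 533 units. A level below is the log2 of the processed signal minus the array's 75th percentile, so 0 is the 75th percentile of all probes and 1 unit is a 2-fold step. Between 57.6 and 62.2% of probes were well above background on the sham arrays and between 51.4 and 57.5% on the nsPEF arrays. The 8 arrays of each time point shared 1 slide, and sham and nsPEF samples lay in different rows of it. Time therefore cannot be told apart from the slide, nor treatment from the place on it. By the paper, the 0 h cells had just been detached, washed, filtered and moved to binding buffer, whereas those of 4 h and 24 h were harvested quickly. Time cannot be told apart from this handling either, and 0 h is not a resting level. Of the 8 Leydig markers read on the array, Star, Cyp17a1, Nr5a1 and Gata4 were well above background on all 24 arrays, whereas Cyp11a1, Hsd3b1, Hsd3b6 and Lhcgr were on none, so the label was borne out only in part. In bulk RNA of this kind, fewer expressing cells and less RNA per cell cannot be told apart, and the p-values measure the spread between these samples.

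From 0 h to 4 h the ligand genes Hbegf, Ereg and Areg and the inhibitor gene Errfi1 rose in both sham-treated and nsPEF-exposed cells, by 3.62-fold to 6.60-fold for the 3 of these that were detected throughout. By 24 h all 4 had fallen again, Hbegf and Ereg to below their 0 h level and Errfi1 back to near it. Egfr, the receptor gene, moved by at most 0.45 on the log2 scale between these times on its brightest probe. By the brightest probe of each gene, no member passed the test for nsPEF against sham at any single time point. At 24 h 1 further probe of Egfr, assigned to another RefSeq transcript, passed.

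**Figure D1:**
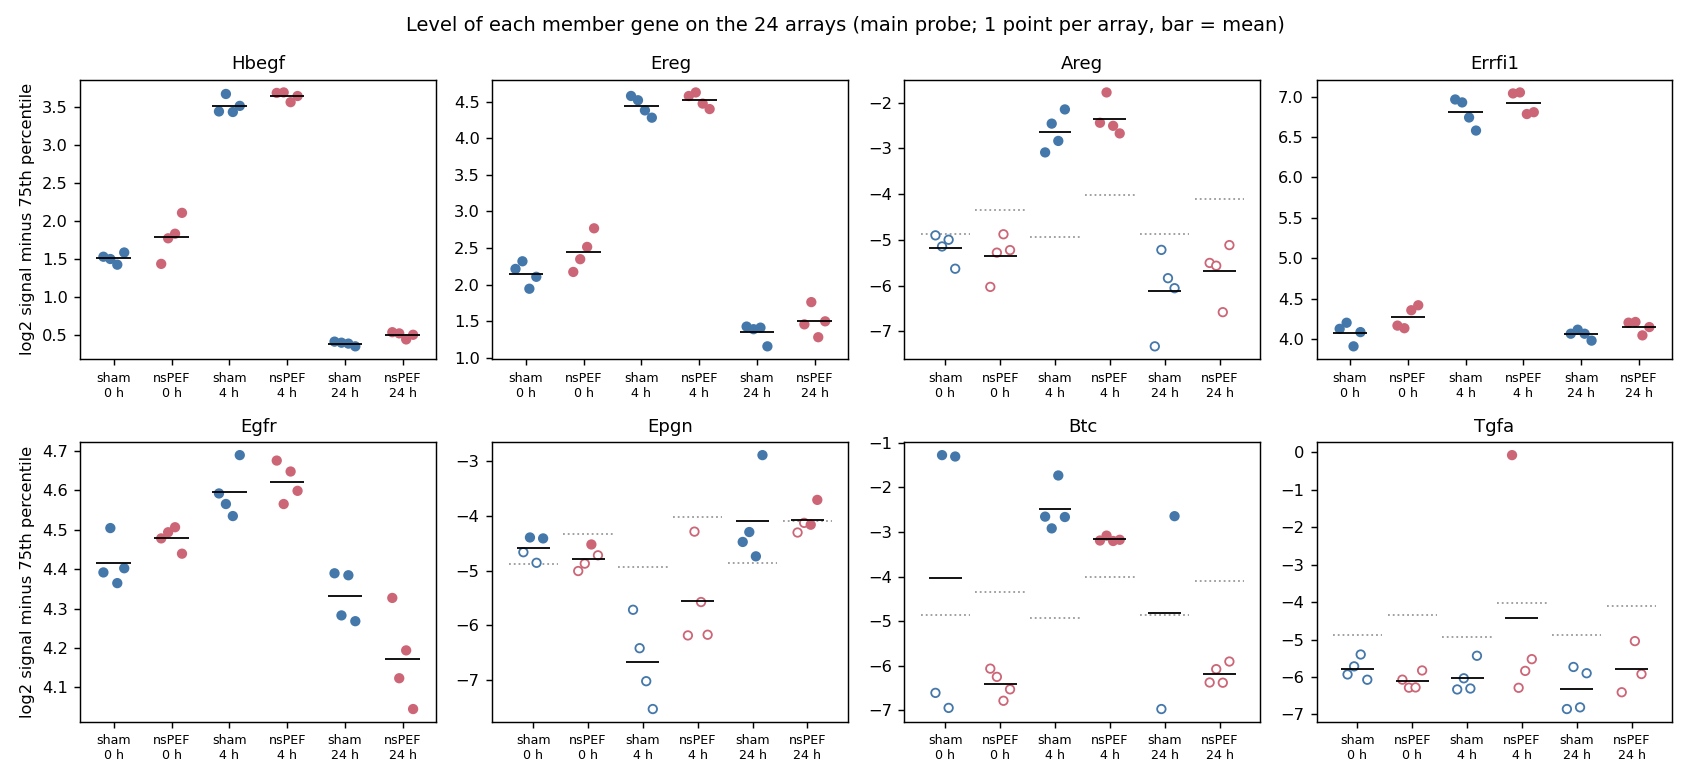
Level of each member gene (log2 of processed signal minus the array's 75th percentile, y axis, with its own range in each panel) on every array of the 6 groups (x axis), with sham in blue and nsPEF in red. Filled points were well above background on that array and open points were not, bars are group means, and the dotted line in the panels of the dim genes is the group mean of the lowest level well above background. Hbegf, Ereg, Areg and Errfi1 peak in S4 and E4, while Tgfa is filled on 1 array.

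Hbegf, heparin-binding EGF-like growth factor, binds the EGF receptor and ERBB4 and is released quickly by shedding. Its level was 1.53, 1.50, 1.42 and 1.58 in replicates 1 to 4 of S0 and 1.43, 1.77, 1.83 and 2.10 in those of E0. At 4 h it was 3.44, 3.67, 3.43 and 3.51 in S4 and 3.68, 3.69, 3.56 and 3.64 in E4. At 24 h it was 0.41, 0.40, 0.39 and 0.35 in S24 and 0.54, 0.52, 0.44 and 0.50 in E24. Every 4 h array was above every 0 h array, and every 24 h array was below both. The sham mean rose from 1.51 ± 0.07 to 3.51 ± 0.11 (SD, n = 4), a log2 difference of 2.00 (SE 0.09, 95% interval 1.81 to 2.19) or 4.01-fold, with an adjusted p of 1.5e-13. The nsPEF mean rose 3.62-fold (adjusted p = 4.4e-13). From 4 h to 24 h sham Hbegf dropped by 3.12 on the log2 scale (8.72-fold, adjusted p = 4.8e-16), and at 24 h it stood 2.18-fold under the 0 h level (log2 difference -1.12, adjusted p = 9.8e-09). In nsPEF-exposed cells the 24 h level was 2.44-fold under that at 0 h (log2 difference -1.28, adjusted p = 1.1e-09).

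Ereg encodes epiregulin, a ligand of the EGF receptor and ERBB4 that prompts cell division. Its level was 2.22, 2.32, 1.94 and 2.11 in replicates 1 to 4 of S0 and 2.17, 2.35, 2.52 and 2.77 in those of E0. It was 4.58, 4.52, 4.38 and 4.28 in S4 and 4.58, 4.63, 4.47 and 4.40 in E4. It was 1.43, 1.39, 1.41 and 1.16 in S24 and 1.46, 1.76, 1.28 and 1.50 in E24. The 3 time points were again fully separated, in the order 4 h, 0 h, 24 h. Sham Ereg rose by 2.29 (SE 0.12, 4.90-fold, adjusted p = 1.1e-12) from 0 h to 4 h and then dropped by 3.09 (8.52-fold, adjusted p = 2.2e-14), which left it 1.74-fold under the 0 h level (log2 difference -0.80, adjusted p = 2.5e-05). Scaling on the spike-in probes raised the median of all probes between 24 h and 0 h by 0.70 in sham, and there the Ereg difference was -0.10 (adjusted p = 0.51) and that of Hbegf -0.42. In nsPEF-exposed cells the rise was 4.19-fold (adjusted p = 5.3e-12) and the 24 h level was 1.93-fold under that at 0 h (adjusted p = 2.7e-06).

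Areg, which encodes amphiregulin, a ligand of the EGF receptor alone, was dim. It was well above background on 8 arrays, and these were the 8 arrays of 4 h. Its level there was -3.09, -2.46, -2.83 and -2.15 in S4 and -2.44, -1.77, -2.50 and -2.67 in E4. At 0 h it was measured at -4.90, -5.14, -5.00 and -5.63 in S0 and -6.03, -5.28, -4.88 and -5.22 in E0, none of them well above background. At 24 h the arrays ran from -7.33 to -5.22 in S24 and from -6.58 to -5.11 in E24. Every 4 h value thus lay above every other value of the gene, and the 0 h and 24 h groups overlapped. Against the lowest signal called well above background on each array, which bounds a level that was not measured, Areg rose at least 4.73-fold in sham (adjusted p = 7.2e-06) and at least 3.98-fold in nsPEF-exposed cells (adjusted p = 7.5e-07). By 24 h it was at least 4.73-fold lower than at 4 h in sham (adjusted p = 1.2e-07) and at least 3.37-fold lower in nsPEF-exposed cells.

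Errfi1 encodes a cytoplasmic scaffold that binds the active receptor kinase, blocks it and sends the receptor for degradation. Its level was 4.13, 4.20, 3.91 and 4.09 in S0 and 4.17, 4.13, 4.36 and 4.42 in E0. It was 6.96, 6.93, 6.74 and 6.58 in S4 and 7.04, 7.05, 6.78 and 6.81 in E4. It was 4.07, 4.12, 4.07 and 3.98 in S24 and 4.20, 4.21, 4.05 and 4.15 in E24. The 4 h arrays stood clear of all the others, while the 0 h and 24 h arrays overlapped, which sets Errfi1 apart in order from Hbegf and Ereg. In sham it rose by 2.72 (SE 0.09, 6.60-fold, adjusted p = 1.2e-15) and dropped by 2.75 (6.71-fold, adjusted p = 2.5e-15), and the difference between 24 h and 0 h was -0.02 (adjusted p = 0.873). In nsPEF-exposed cells it rose 6.28-fold (adjusted p = 1.6e-15), and the difference between 24 h and 0 h was -0.12 (adjusted p = 0.314).

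Promoter sequence from RefSeq (assembly GRCm38.p6) was read for 6 of the members, and Hbegf and Ereg were not among them. It came as 7 windows of 250 bases before to 50 bases after a transcript start, 2 of them for Errfi1. Windows were searched on both strands for a cAMP response element (TGACGTCA), a TATA box (TATAAA), an AP-1 site (TGANTCA) and a GC box (GGGCGG). The window of Areg and the second window of Errfi1, both genes that rose at 4 h, each held the cAMP response element and the TATA box, and a stretch of 120 bases of each is shown with those 2 motifs in capitals.
Areg, chr5:91139479-91139598, plus strand: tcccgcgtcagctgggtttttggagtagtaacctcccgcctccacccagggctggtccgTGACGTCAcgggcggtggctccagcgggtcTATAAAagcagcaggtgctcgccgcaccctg
Errfi1, chr4:150854950-150855069, plus strand: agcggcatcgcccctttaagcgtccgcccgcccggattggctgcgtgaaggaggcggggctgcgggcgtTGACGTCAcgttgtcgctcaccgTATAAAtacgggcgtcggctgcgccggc
The cAMP response element began 61 bases upstream of the start in Areg and 51 bases upstream in Errfi1, and the TATA box began 31 and 28 bases upstream. Of 32851 mouse windows of this length, 1.79% held TGACGTCA, 13.6% held TATAAA and 0.17% held both. The GC box, present in 35.7% of windows, was in both windows shown and in those of Tgfa and Egfr. The window of Epgn held TATAAA, those of Btc and the first of Errfi1 held none of the 4, and TGANTCA (7.81% of windows) was in none of the 7. A match describes letters in a window and is not a measured site.

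Epgn encodes epigen, a ligand that binds the receptor weakly. It was well above background on 9 arrays, namely 2 of S0, 1 of E0, all 4 of S24, 2 of E24 and none at 4 h. At 24 h the lowest level well above background was -5.01 to -4.71 on the sham arrays and -4.31 to -3.83 on the nsPEF arrays. These counts therefore cannot be compared between treatments, and the mean measured signal of Epgn was -4.10 in S24 and -4.08 in E24. Its level was -4.67, -4.40, -4.86 and -4.41 in S0, and -5.72, -6.42, -7.02 and -7.53 in S4, and -4.48, -4.30, -4.74 and -2.89 in S24. The S4 arrays lay below all arrays of S0 and S24. Sham Epgn was lower at 4 h than at 0 h in the limma fit on the measured signals (adjusted p = 2.1e-04). No fold is given there, as no S4 array and only 2 of S0 were well above background. It was at least 1.78-fold higher at 24 h than at 4 h (adjusted p = 2.3e-05 in the same fit). Both changes were in the opposite direction to those of Hbegf, Ereg and Areg. With values under the lowest level well above background raised to that level, the sham difference between 4 h and 0 h was -0.36 (adjusted p = 0.278) and no longer passed. It was -5.01, -4.87, -4.52 and -4.72 in E0, and -6.19, -4.29, -5.58 and -6.17 in E4, and -4.31, -4.13, -4.16 and -3.71 in E24. The E0 and E4 groups overlapped (adjusted p = 0.116). From 4 h to 24 h the fit on the nsPEF arrays passed (adjusted p = 0.0049), but no E4 array was well above background and the lowest level measurable there was not below the E24 mean, so no fold is given. With dim values raised to that lowest level the nsPEF call was lost (adjusted p = 0.966).

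Btc encodes betacellulin, which binds the EGF receptor and ERBB4. Of its 2 probes, the brighter was well above background on 11 arrays, including all 8 of 4 h. Its level was -2.66, -2.92, -1.73 and -2.66 in S4 and -3.19, -3.08, -3.20 and -3.18 in E4. It was -6.61, -1.27, -6.95 and -1.31 in S0, where replicates 2 and 4 were above background, and -6.07, -6.25, -6.79 and -6.53 in E0, where none was. It was -6.98 and -2.64 in replicates 2 and 4 of S24, whose other arrays had a spot marked by the scanner software and gave no value to the fit, and -6.38, -6.08, -6.39 and -5.91 in E24. The S0 replicates were thus split widely, and the sham difference between 4 h and 0 h was 1.54 (SE 1.08, adjusted p = 0.237). In nsPEF-exposed cells Btc rose at least 2.26-fold from 0 h to 4 h (adjusted p = 0.0148) and was at least 1.91-fold lower at 24 h than at 4 h (adjusted p = 0.0237). The fall was called in 11 of 14 processing alternatives, and no longer with dim values raised to the lowest level well above background (adjusted p = 0.269), with marked spots kept (0.0664) or with the deposited log2 values (0.0657). This probe lay in row 380 of the array's 384 rows, and in the last 12 rows the median share of dim probes called well above background was 20.6% on sham arrays and 0.297% on nsPEF arrays, against 5.11% and 4.01% between the edges. After centring by array row and signal the nsPEF rise was 3.32 (adjusted p = 0.0156) against 3.25 without it, and with dim values raised to the lowest level well above background it was 1.18 (adjusted p = 0.138). The second Btc probe was well above background on no array, with values of -7.53 to -6.94 in sham and -6.91 to -5.15 in nsPEF-exposed cells, and was not tested.

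Tgfa encodes transforming growth factor alpha, a classic EGF receptor ligand. Its level reached -0.07 in replicate 1 of E4, the 1 array on which it was well above background, against -6.29, -5.84 and -5.52 in the other E4 replicates, and it was not tested. Its probe lay in row 6, and in the first 12 rows the median share of dim probes called well above background was 1.20% on sham arrays and 23.3% on nsPEF arrays. The part of that edge pattern in the single Tgfa value was not tested.

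Egfr, the receptor gene, was read by 3 probes, all well above background on all 24 arrays. On the brightest probe the level was 4.39, 4.50, 4.36 and 4.40 in S0, and 4.59, 4.57, 4.53 and 4.69 in S4, and 4.39, 4.28, 4.38 and 4.27 in S24. In nsPEF-exposed cells it was 4.48, 4.49, 4.51 and 4.44 in E0, and 4.68, 4.57, 4.65 and 4.60 in E4, and 4.33, 4.12, 4.19 and 4.05 in E24. Every array of a treatment at 4 h lay above every one of that treatment at 0 h, by a small margin, and E24 lay below E0. Sham Egfr was 1.13-fold higher at 4 h than at 0 h (log2 difference 0.18, SE 0.06, adjusted p = 0.0083) and dropped by 0.26 from 4 h to 24 h (adjusted p = 3.6e-04), the latter turning to 0.39 with spike-in scaling, which moved the median of all probes by 0.66. The rise to 4 h no longer passed with quantile scaling (log2 difference 0.03), with the percentile over detected probes (log2 difference 0.06) or with the mean of the Egfr probes (log2 difference 0.09). In nsPEF-exposed cells the rise of 0.14 (adjusted p = 0.031) was called in 8 of 14 processing alternatives, turned to -0.019 with quantile scaling, and was called in 20 of 28 fits that left out a replicate. From 4 h to 24 h the difference was -0.45 (adjusted p = 6.7e-07), and 24 h was below 0 h by a log2 difference of -0.31 (adjusted p = 1.7e-04; 0.17 with spike-in scaling), whereas in sham that difference was -0.08 (adjusted p = 0.250).

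The probes of Egfr did not move alike. Probe A_52_P674338, assigned to the same RefSeq transcript as the brightest, was higher by 0.20 at 4 h than at 0 h in sham (limma, adjusted p = 0.0107). The dimmest probe was assigned to another RefSeq transcript. The dimmest one (A_52_P56471) was 0.91, 0.79, 0.83 and 0.84 in S0 and 0.67, 0.74, 0.59 and 0.89 in S4, with a difference of -0.12 (adjusted p = 0.136) where the brightest probe rose. At 24 h it was 0.51, 0.61, 0.56 and 0.53 in S24 and 0.43, 0.15, 0.40 and 0.22 in E24. Here the groups did not overlap, and nsPEF was lower by a log2 difference of -0.25 (SE 0.07, adjusted p = 0.0377, exact two-sided permutation p = 0.0286, the smallest that 4 against 4 allows). In that comparison 4.82% of all tested probes passed, and the share without overlap was not counted. The brightest probe (A_52_P106259) gave -0.16 at 24 h (95% interval -0.27 to -0.04, adjusted p = 0.0981) and the third (A_52_P674338, in the last row of the array) gave -0.13 (adjusted p = 0.253). All 3 probes were lower after nsPEF at 24 h, and 1 of them passed the test. It was called in 9 of 13 processing alternatives and no longer passed with the 8 arrays of that slide alone (adjusted p = 0.147), with normexp background correction (0.163), with the percentile over detected probes (0.0757), with spike-in scaling (0.0684) or when any of S24 replicates 1, 2 or 3 or E24 replicates 2 or 4 was left out.

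**Figure D2:**
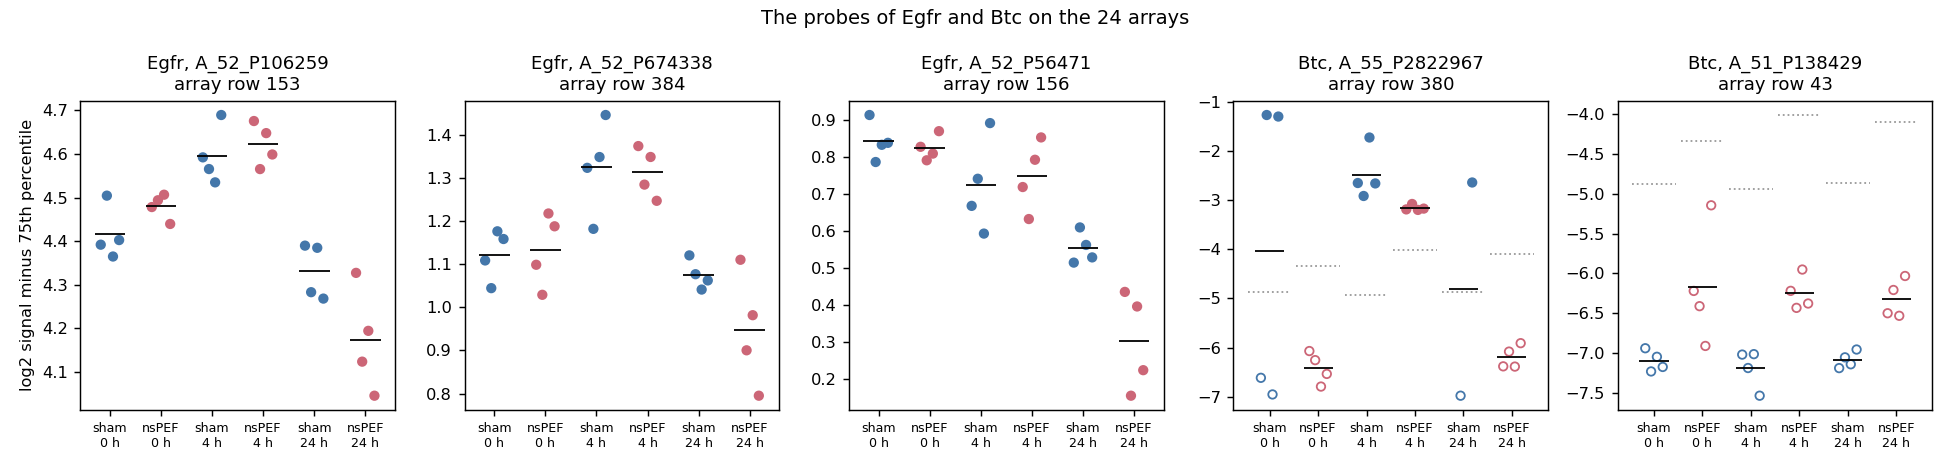
Level of each of the 3 Egfr and 2 Btc probes (y axis, log2 of processed signal minus the 75th percentile of the array) on every array of the 6 groups (x axis), with sham in blue and nsPEF in red and the row of the probe on the array given above each panel. Bars are group means, filled points were well above background, open points were not, and the dotted line is the group mean of the lowest level well above background. The nsPEF arrays at 24 h sit apart from sham on the dimmest Egfr probe, from 0.15 to 0.43 against 0.51 to 0.61, and the brighter Btc probe splits widely among the S0 arrays.

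Counted over the 7 tested members, 6 passed the test between 4 h and 0 h in sham (5 higher and 1 lower, with the limits on Egfr and Epgn given above). The median difference was 2.00 against -0.01 over all tested probes. Calls were frequent in that comparison, at 59.1% of all tested probes (29.4% higher). Between 24 h and 4 h in sham 6 of 7 passed (1 higher, 5 lower) against 57.7% of all probes (29.9% lower), and the median was -2.75 against 0.01. Between 24 h and 0 h in sham the 2 calls were Hbegf and Ereg, both lower, against 36.6% of all probes (19.7% lower). In nsPEF-exposed cells 6 of 7 were higher at 4 h than at 0 h (with the limits on Btc and Egfr given above), where 61.3% of all probes were called (33.5% higher), and the median was 2.07 against 0.09. All 7 passed between 24 h and 4 h (1 higher, 6 lower, with the limits on Btc and Epgn given above), where 56.6% of all probes did (29% lower). The 3 calls between 24 h and 0 h were Hbegf, Ereg and Egfr, all lower, against 42.2% of all probes (18.3% lower). The share of members called was therefore to be read against a large background, and it was in the size of the 4 h differences that Hbegf, Ereg, Areg and Errfi1 lay far from the median probe. Regardless of sign, the median size between 4 h and 0 h over all tested probes was 0.47 in sham and 0.51 in nsPEF-exposed cells. The members were chosen with earlier results of these data known.

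**Figure D3:**
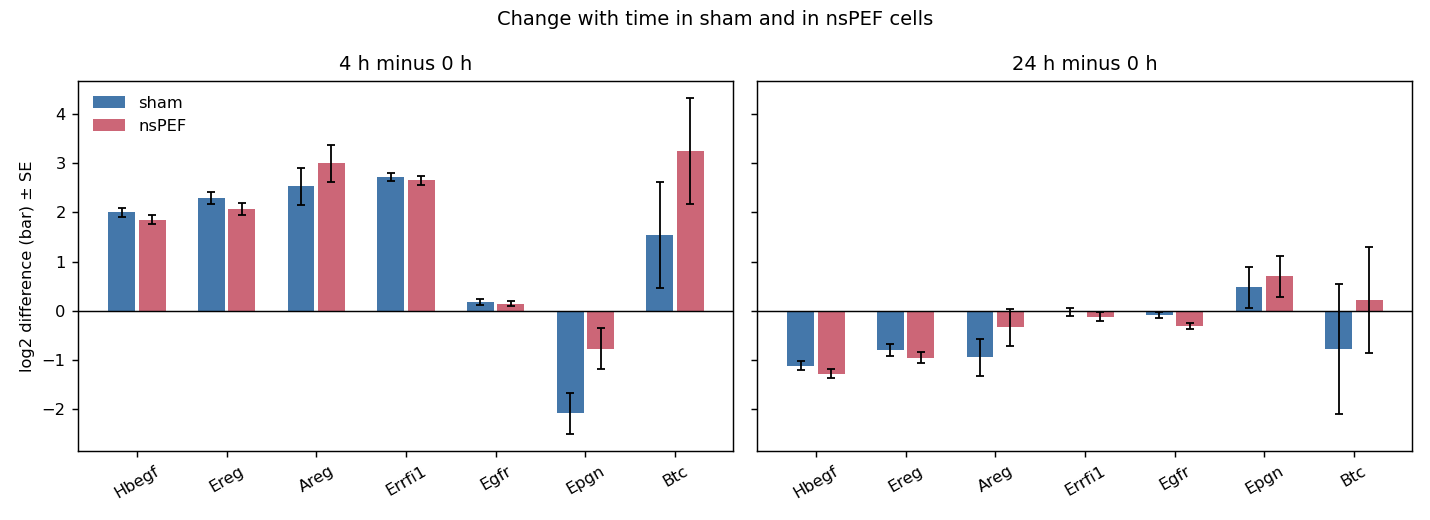
Log2 difference of the measured signals, those not well above background included (y axis), of 4 h minus 0 h and of 24 h minus 0 h for the 7 tested members (x axis), in sham (blue) and nsPEF-exposed (red) cells, with bars for the differences and lines for their standard error from limma. Sham Hbegf, Ereg and Errfi1 stand at 2.00, 2.29 and 2.72 at 4 h, and Hbegf and Ereg fall below 0 at 24 h.

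Markers of other cell types moved over the same hours, in both directions. Of the 4 epithelial markers, Krt8 and Krt18, keratins of simple epithelia, were well above background on all 24 arrays and were higher at 4 h in both treatments, while Epcam was on 2 arrays and Cdh1 on 1. Their summed signal, relative to the array's 75th percentile on a linear scale, was 1.82 to 2.08 in S0, 6.80 to 7.49 in S4 and 1.81 to 2.12 in S24, and 1.97 to 2.15, 6.17 to 7.50 and 1.99 to 2.38 in the nsPEF groups. Of the 4 macrophage markers, Csf1r was higher and Cd68 lower at 4 h, with a summed signal of 3.11 to 3.31 in S0 and 4.84 to 5.80 in S4, while the defining markers Ptprc and Adgre1 were well above background on 1 array each. Of the 6 Sertoli markers, Sox9 and Wt1 were lower at 4 h, with a summed signal of 30.4 to 37.2 in S0, 17.5 to 22.6 in S4 and 26.8 to 30.5 in S24. Of the 6 peritubular and mesenchymal markers 2 were higher and 2 lower, with a summed signal of 528 to 550 in S0, 382 to 478 in S4 and 391 to 405 in S24. Of the 4 germ cell markers 1 was higher and 1 lower, and of the 3 endothelial markers Pecam1 was lower while Cdh5 and Kdr were well above background on no array. The part of these markers in the changes of the members was not tested.

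For nsPEF against sham, 0 of the 7 tested members passed limma's test at 0 h, where 0.127% of all tested probes did, 0 at 4 h (3.31%) and 0 at 24 h (4.82%). At an unadjusted p below 0.05 the counts were 3, 1 and 1 of 7, where 10%, 21% and 22% of all tested probes were. The medians over the members were 0.06, 0.12 and 0.09, against -0.03, 0.00 and 0.02 over all tested probes. A p that misses the threshold does not show that the groups were alike, and the intervals of the differences give the sizes these arrays left possible.

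Hbegf came nearest to the threshold at 0 h, with 3 of the 4 E0 arrays above all S0 arrays and a difference of 0.28 (SE 0.09, 95% interval 0.09 to 0.47, adjusted p = 0.245, exact two-sided permutation p = 0.114). It was 0.13 at 4 h (adjusted p = 0.427), where the groups overlapped. It was 0.11 at 24 h (adjusted p = 0.483), where they did not (exact two-sided permutation p = 0.0286). The share of all tested probes without overlap at 24 h was not counted, and 22% had an unadjusted p below 0.05 in limma. For Ereg the differences were 0.31 (adjusted p = 0.352), 0.08 and 0.15, and for Errfi1 they were 0.19 (adjusted p = 0.500), 0.12 and 0.09. All 9 of these differences lay above 0, none past the threshold, and all 3 genes were highest at 0 h in E0 replicate 4. These 3 genes were picked from the 7 and correlated within groups (0.52 to 0.83), so the 9 signs are not independent. Egfr, also detected on all arrays, differed by 0.06 at 0 h, 0.03 at 4 h and -0.16 at 24 h on its brightest probe. The share of all tested probes above 0 at all 3 times was not counted. Averaged over the 3 times, Hbegf was higher after nsPEF by 0.17 (SE 0.05, 95% interval 0.06 to 0.28, adjusted p = 0.0453) and was the 1 member of 7 called, where 8.84% of all tested probes were. That call held in 4 of the 28 fits that left out a replicate and was lost with normexp background correction, with marked spots kept and with the deposited log2 values. Ereg, at 0.18 (adjusted p = 0.106), and Errfi1, at 0.13 (adjusted p = 0.113), did not pass.

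**Figure D4:**
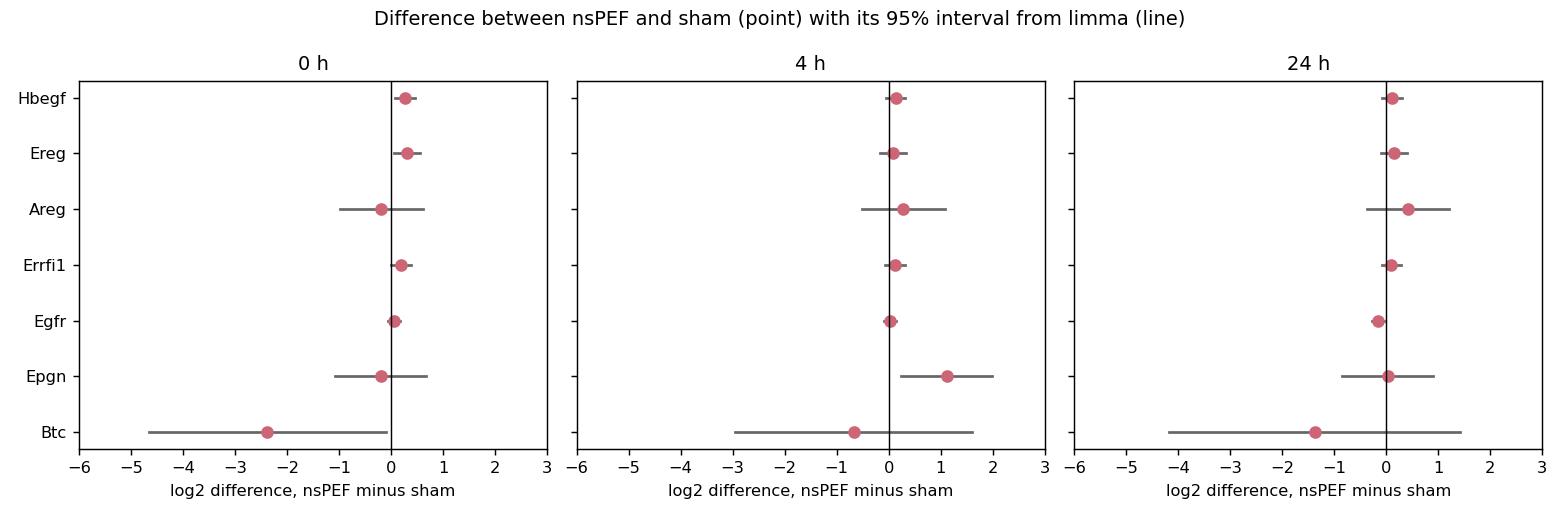
Log2 difference of nsPEF minus sham (x axis) for the 7 tested members (y axis) at 0, 4 and 24 h (panels), with points for the difference and lines for the 95% interval from limma. The intervals of Hbegf, Ereg, Errfi1 and Egfr are narrow and those of Btc, Epgn and Areg wide, and the latter include signals not well above background (both groups for Areg at 0 and 24 h and Epgn at 4 h). Hbegf at 0 h is at 0.28 with an interval of 0.09 to 0.47.

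Among the dim ligands the intervals were wide. Epgn was well above background on no array of S4 or E4, so no difference is given for 4 h (adjusted p = 0.137). For Btc at 0 h no E0 array was well above background and the S0 replicates were split, so no fold is given (limma, adjusted p = 0.472). At 4 h it differed by -0.67 (adjusted p = 0.760), and every E4 array lay under every S4 array (exact two-sided permutation p = 0.0286). The share of all tested probes without overlap at 4 h was not counted, and 21% had an unadjusted p below 0.05 in limma. The Btc probe lay in row 380, and in the last 12 rows the median share of dim probes called well above background was 20.6% on sham and 0.297% on nsPEF arrays. The part of that edge pattern in the Btc difference was not tested. At 24 h the Btc comparison rests on 2 sham arrays, with none of E24 well above background (adjusted p = 0.565). Areg differed by 0.28 at 4 h (adjusted p = 0.702) and was not well above background in either treatment at 0 and 24 h. For the interaction of treatment and time 0 of the 7 members passed, where 0.377% of all tested probes did, and the 1 member with an unadjusted p below 0.05, as 16.7% of all tested probes had, was Egfr (limma, adjusted p = 0.228).

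Among the members detected on all 24 arrays, the levels of Hbegf and Ereg had a Pearson correlation of 0.99 over the arrays, those of Ereg and Errfi1 of 0.96 and those of Hbegf and Errfi1 of 0.93. Within groups, with the group means removed, these were 0.67, 0.83 and 0.52. Egfr correlated with the other 3 at 0.74 to 0.86 over the arrays and at -0.04 to -0.03 within groups. These values describe 24 arrays that share slides within each time, and most of the likeness lay between times.

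Of 12248 genes detected on every array, those with the pattern most like Hbegf over the 24 arrays were Mafk (r = 0.990), a small Maf transcription factor, Tmem125 (r = 0.989) and Srf (r = 0.989), serum response factor. For Ereg they were Maff (r = 0.994), another small Maf factor, Arf2 (r = 0.990) and Prr9 (r = 0.988). For Errfi1 they were Rras2 (r = 0.997), a Ras-related GTPase, Odc1 (r = 0.997), which makes polyamines, and Nifk (r = 0.996). For Egfr they were Cobll1 (r = 0.949), Il1r1 (r = 0.948), the interleukin-1 receptor, and Saraf (r = 0.944). With the mean of each of the 6 groups removed, the values of these genes were 0.398, 0.383 and 0.286 for Hbegf, 0.616, 0.657 and 0.322 for Ereg, 0.882, 0.912 and 0.845 for Errfi1 and 0.665, 0.603 and 0.564 for Egfr.

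In the mouse genome the ligand genes Epgn, Ereg, Areg and Btc are neighbours on chromosome 5, in that order, between Mthfd2l and Parm1. Their measured patterns differed within that cluster, where Areg, Btc and Epgn were dim. Ereg and Areg rose at 4 h in both treatments, Btc passed the test in nsPEF-exposed cells, and Epgn, next to Ereg, was lower at 4 h in sham. With dim values raised to the lowest level well above background, neither the Btc call (adjusted p = 0.138) nor the Epgn call (0.278) passed in limma. Btc was well above background on all S4 arrays too, its S0 replicates were split, and its interaction of treatment and time did not pass (limma, adjusted p = 0.744). Hbegf on chromosome 18 and Errfi1 on chromosome 4 lie apart from the cluster and rose at 4 h as Ereg did.

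The rest of the pathway was described by a list of 62 further genes, of which 61 were on the array and 58 were tested. In sham 28 were higher and 20 lower at 4 h than at 0 h, with a median difference of 0.18, beside 59.1% of all tested probes called (29.4% higher) and a median of -0.01, so the list as a whole did not show a rise of the size seen in Hbegf, Ereg and Errfi1. Between 24 h and 4 h 17 were higher and 31 lower, with a median of -0.36, beside 57.7% of all tested probes called (29.9% lower). In nsPEF-exposed cells 28 were higher and 24 lower at 4 h than at 0 h, beside 61.3% of all tested probes called (33.5% higher).

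Among the other ligands of the family 1 of 3 tested genes was higher at 4 h in sham, and it was Nrg1, neuregulin 1, which binds ERBB3 and ERBB4 (difference 0.73, SE 0.05, adjusted p = 4.6e-11). Both tested other receptors were lower, Erbb3 the more so (-0.55, SE 0.23, adjusted p = 0.0488), a call that was lost in most fits that left out a replicate. Of 9 tested genes of ligand shedding 5 were higher and 3 lower. Adam19, a membrane metalloprotease, had the largest rise of these 5 (2.16, SE 0.05, adjusted p = 3.0e-18), and Rhbdf2, an inactive rhomboid protein needed for the maturation of the sheddase ADAM17, had the largest fall (-0.44, adjusted p = 3.3e-05).

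Of 16 genes of the adaptors and the Ras-ERK chain 6 were higher and 5 lower, led by Map2k1, the ERK kinase MEK1 (1.43, adjusted p = 1.3e-13), and Ksr1, a scaffold of the chain (-0.99, adjusted p = 4.0e-04). Of 17 genes of receptor downregulation 9 were higher and 6 lower, led by Socs4, which takes the receptor to degradation (1.37, adjusted p = 3.8e-11), and Lgals3bp (-0.96, adjusted p = 6.3e-14). Of 11 EGF-induced feedback genes outside the members 7 were higher and 4 lower. They ran from Dusp5, a phosphatase of ERK in the nucleus (1.70, adjusted p = 7.7e-08), to Zfp36, which destabilises messenger RNA (-4.44, adjusted p = 9.7e-19). All these counts by role are for sham at 4 h against 0 h, where 59.1% of all tested probes were called (29.4% higher). The rise of Errfi1, at 2.72, was larger than any of these 58 genes showed in that comparison.

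**Figure D5:**
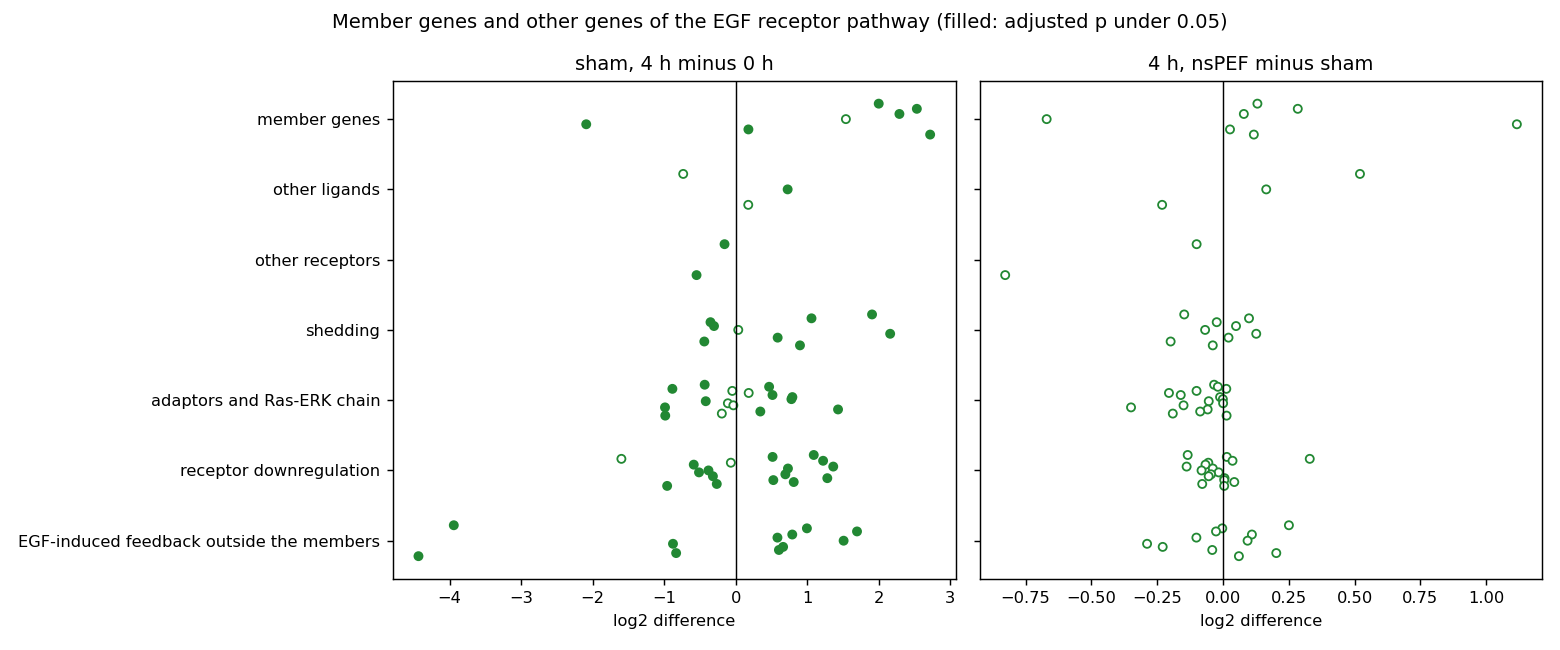
Log2 difference (x axis) of sham at 4 h minus 0 h (left) and of nsPEF minus sham at 4 h (right) for the tested genes of the pathway list and the members, in rows by role. Each point is 1 gene and filled points have an adjusted p under 0.05 in limma. On the left the genes spread from -4.44 (Zfp36) to 2.72 (Errfi1), and on the right none is filled.

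For nsPEF against sham 0 of the 58 passed at 0 h and at 4 h, and 4 passed at 24 h. They were Dusp1, a phosphatase of MAP kinases (-0.44, SE 0.07, adjusted p = 0.00313), Sos1, the exchange factor that activates Ras (-0.31, SE 0.07, adjusted p = 0.0141), Rhbdf2 (-0.31, SE 0.07, adjusted p = 0.0232) and Map2k2, the ERK kinase MEK2 (0.22, SE 0.06, adjusted p = 0.0365). The count lies near the 4.82% of all tested probes called at that time. With the 8 arrays of the slide alone none of the 4 passed. Of the 13 processing alternatives Dusp1 and Rhbdf2 were called in 12, Sos1 in 11 and Map2k2 in 7, and of the 28 fits that left out a replicate Dusp1 was called in 28, Sos1 in 25, Rhbdf2 in 20 and Map2k2 in 20.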

How the data were processed

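RNA of 24 TM3 samples had been hybridised to one-colour arrays and read by the authors with Feature Extraction 12.0. Per the file headers, the deposited scanner files hold, for each spot, a mean and a local background intensity, a processed intensity (arbitrary units, background already subtracted) and other marks of the software for spots well above background, not uniform or outlying. The authors also deposited a matrix of the series with log2 values, which the authors had shifted to the 75th percentile and centred on each probe's median. It served as an alternative, and 0 of its columns were left over.

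Here 59305 spots other than controls were averaged to 56605 probes, leaving out marked spots (saturated spots numbered 0). Values were log2 of the processed signal minus the array's 75th percentile. A probe was tested where it was well above background on at least 2 of 4 arrays of any group, which gave 37684 probes. The 6 group means were fitted to all 24 arrays with limma (version 3.58.1; R 4.3.3, with version 2.0.0 of jsonlite and 1.17.8 of data.table), and p-values were adjusted over every tested probe by Benjamini-Hochberg, with 0.05 as threshold. Where no array of a group was well above background, a fold is given as at least N-fold against the mean, over its arrays, of the higher of the probe's own value and the lowest value well above background. A p-value beside such a fold is that of the fit on the measured signals, not of the bound. A gene counts once, by its probe with the highest mean. What an array can show is limited by its background, and precision by how many arrays there are. Scripts were tested on simulated data.

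The members, lists and tests were chosen with earlier results of these data known. Named genes are all members with every probe, in each role of the pathway list the called gene with the largest rise and largest fall from 0 h to 4 h in sham, every listed gene called for nsPEF against sham at one time, and the 3 genes most correlated with each member detected on all arrays. Alternatives were quantile and spike-in scaling (6 spike-in probes), the percentile over detected probes, normexp background correction with an offset of 50, a floor, marked spots kept, another filter, the mean of a gene's probes, centring by array rows, each slide alone, the replicate number as a block, the two-way analysis of variance of the methods, the deposited log2 values, and leaving out each array. Promoter windows are RefSeq's for GRCm38.p6. Promoter windows of Hbegf and Ereg and protein sequences were not used here.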

Additional observations from a re-analysis of the deposited data

Results flagged for a closer look

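Of 64 groups of 4 arrays tested over the members' probes, 2 held an array far from its group by Dixon's ratio, and chance alone marks about 1 group in 20. Ereg in S24 replicate 4 was at 1.16 against 1.39 to 1.43 in the other S24 arrays (ratio 0.867). Tgfa in E4 replicate 1 was at -0.07 against -6.29 to -5.52 in the other E4 arrays (ratio 0.877), and it is the 1 array on which Tgfa was well above background.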

How the results depend on the processing

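The calls of Hbegf, Ereg, Areg and Errfi1 between 0 h and 4 h and between 4 h and 24 h held, in both treatments, under all alternatives and without each array. Directions reversed mostly with spike-in scaling, which moved the median of all probes by 0.70 (sham 24 h against 0 h), 0.54 (nsPEF 24 h against 0 h), 0.66 (sham 24 h against 4 h) and 0.37 (nsPEF 24 h against 4 h). With it Egfr was 0.39 for sham 24 h against 4 h, 0.61 for sham 24 h against 0 h and 0.17 for nsPEF 24 h against 0 h, its probe A_52_P56471 was 0.48 and 0.41 for the sham comparisons, its probe A_52_P674338 was 0.40, 0.65, 0.029 (nsPEF 24 h against 4 h) and 0.29 (nsPEF 24 h against 0 h), and Errfi1 was 0.67 and 0.36 for 24 h against 0 h in sham and nsPEF. Quantile scaling turned Egfr in nsPEF 4 h against 0 h to -0.019, and raising dim values to the floor turned Epgn in nsPEF 24 h against 4 h to -0.017.

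Of the 7 members, the count called for nsPEF against sham over all times, 1 in the report, was 2 with quantile scaling, 3 with spike-in scaling, 3 with the percentile over detected probes, 0 with normexp and 2 with the floor, and 0 to 1 without single replicates. At 4 h it was 1 with spike-in scaling and 1 with the floor (both Epgn), and at 24 h 1 with the floor (Areg). In these Epgn and Areg comparisons no array of either group was well above background, so the floor's differences are only those between the arrays' floors. At 24 h it was also 1 with marked spots kept and 1 with the deposited log2 values (both Egfr). Without single replicates it was 0 to 1 at 0 h (Hbegf at 0.39, adjusted p = 0.0275 in limma, without E0 replicate 1) and 0 to 1 at 24 h (Egfr at -0.21, adjusted p = 0.0163, without E24 replicate 1). For sham 24 h against 0 h it was 4 with spike-in scaling, and for the interaction 1 (Egfr). Btc in sham 24 h against 4 h, -2.32 in the report, was -4.48 (adjusted p = 0.0211) without S24 replicate 4 and -0.15 without S24 replicate 2.

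Same-numbered replicates correlated at -0.159 to 0.289 in their deviations from the group means, so the numbers were not taken as pairs. With the replicate block 3 members, not 2, were called for sham 24 h against 0 h, the third being Areg (adjusted p = 0.0498). The causes of these shifts were not tested. Signal over background limits Areg at 0 h and 24 h, Epgn at 4 h, Btc at 0 h and 24 h, and Tgfa throughout, where differences are bounds or unmeasured.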

Other observations

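At 24 h in sham 2 of the 11 feedback genes outside the members were higher than at 0 h and 8 were lower, beside 36.6% of all tested probes called (19.7% lower). The median log2 difference was -0.37, where Errfi1 differed by -0.02 (limma, adjusted p = 0.873). Dusp1 and Zfp36, which are known as immediate early genes, were lower by -3.63 (adjusted p = 4.6e-18) and -4.07 (adjusted p = 1.3e-17). Dusp5, which had risen at 4 h, was at -1.01 (adjusted p = 2.0e-04), and Spred2, an inhibitor of Ras-ERK signalling, was higher at 0.26 (adjusted p = 0.0028). Spred1, a related inhibitor, had risen at 4 h and was at 0.09 (adjusted p = 0.288). Scaling on the spike-in probes moved the median of all probes by 0.70 in this comparison, which is more than the size of the list's median. These 5 genes were chosen after their values were seen.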
